A study of Mus musculus and Homo sapiens with 176 samples.

Results

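The proteasome genes described here are the 50 features, of 24854 in each expression table, whose symbol starts with Psm, a letter from a to g and a digit. They comprise 7 genes of the core alpha ring and 7 of the core beta ring, 6 ATPases and 3 other subunits of the regulatory particle base, 8 lid subunits, 4 chaperones of core assembly, 3 chaperones of regulatory particle assembly, 5 activators, 1 inhibitor (Psmf1), 3 inducible catalytic subunits, 1 thymus subunit (Psmb11) and 1 testis subunit (Psma8). The symbol of Psmc3ip also matches, although the gene encodes a factor of meiotic recombination, and it is kept apart. The 2 rings of the core and the 3 groups of regulatory particle subunits, 31 genes in all, are called the constitutive set below. The 8 RNA libraries came from nuclei of a C57BL/6 mouse labelled M3, aged 8 to 10 weeks, sorted with a fluorescent antibody to NeuN, the neuronal nuclear protein encoded by Rbfox3. They form 4 groups of 2 libraries each: cerebellar NeuN+, cerebellar NeuN-, prefrontal NeuN+ and prefrontal NeuN- nuclei, with no treatment and no transgene named. Dissection is described for the cerebellum, and what replicates 1 and 2 of a group share is not stated, so the p-values measure the spread between libraries of 1 animal, which may be technical. The series holds 176 samples; its 114 mouse chromatin and 54 human cell line samples are not analysed here.

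The proteasome degrades proteins that carry chains of ubiquitin. Its core particle is a barrel of alpha rings around beta rings, and 3 of the beta subunits, encoded by Psmb5, Psmb6 and Psmb7, cut peptide bonds. The regulatory particle recognises, unfolds and feeds in the substrate; its base carries a ring of ATPases and its lid removes ubiquitin. Interferon induces the alternative catalytic subunits Psmb8, Psmb9 and Psmb10 and the activator Psme1 and Psme2, which shift the peptides made toward those shown on class I molecules. In the brain, microglia are known for expressing the inducible subunits, and neurons depend on the constitutive form for synaptic protein turnover.

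Values are FPKM, the fragments mapped to a gene divided by its transcript length and by the depth of the library. Each library was multiplied by a scaling factor between 0.869 and 1.04 to give scaled FPKM, and changes are differences of log2(scaled FPKM + 1), which understates the change of genes at low levels. They are followed by their standard error and a limma p-value adjusted over all 14376 features tested, and a change was called at an adjusted p under 0.05. Features had to reach 1 FPKM in 2 libraries to be tested, and 48 of the 50 did. FPKM summed to 289350 to 426851 per library, highest in prefrontal NeuN-, and relative depth ran from 1 to 1.51. The sorting labels were checked against marker lists. The 7 oligodendrocyte markers summed to 201 and 200 FPKM in cerebellar NeuN+, 1501 and 1539 in cerebellar NeuN-, 86.3 and 81.2 in prefrontal NeuN+, and 2147 and 2094 in prefrontal NeuN-, so glial transcripts were many times higher in both NeuN- gates. The 7 general neuron markers did not follow the gate in the same way. They summed to 1244 and 1256 FPKM in cerebellar NeuN+ against 649 and 666 in cerebellar NeuN-, but to 1345 and 1336 in prefrontal NeuN+ against 2013 and 2090 in prefrontal NeuN-. Rbfox3 itself was at 16.2 and 15.7 FPKM in prefrontal NeuN+ and 14.2 and 12.3 in prefrontal NeuN-, so the prefrontal NeuN- libraries do not lack neuronal transcripts. The 5 cortical projection neuron markers did follow the prefrontal gate. They summed to 40.5 and 42.4 FPKM in prefrontal NeuN+ against 17.6 and 16.1 in prefrontal NeuN-.

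Summed over the constitutive set, proteasome gene levels were highest in prefrontal NeuN- and lowest in cerebellar NeuN- nuclei, with both NeuN+ groups between them, but as a share of the library the regulatory particle was highest in prefrontal NeuN+. Their FPKM summed to 2880 and 2865 in cerebellar NeuN+, 2430 and 2484 in cerebellar NeuN-, 3497 and 3501 in prefrontal NeuN+, and 5165 and 5045 in prefrontal NeuN-, and no group overlapped another. As a share of all FPKM in the library, which amounts to rescaling libraries to a common sum, the set took 0.992% and 0.984% in cerebellar NeuN+, 0.84% and 0.85% in cerebellar NeuN-, 1.14% and 1.15% in prefrontal NeuN+, and 1.21% and 1.22% in prefrontal NeuN-. The order of the 4 groups was the same on both measures, with 13 of the 14 core genes and 8 of the 17 regulatory particle genes highest in prefrontal NeuN- by mean scaled FPKM. The core alone took 0.522% and 0.516% in cerebellar NeuN+, 0.452% and 0.458% in cerebellar NeuN-, 0.526% and 0.537% in prefrontal NeuN+, and 0.652% and 0.627% in prefrontal NeuN-. The regulatory particle took 0.47% and 0.469% in cerebellar NeuN+, 0.387% and 0.392% in cerebellar NeuN-, 0.612% and 0.609% in prefrontal NeuN+, and 0.558% and 0.591% in prefrontal NeuN-, so its share was higher in prefrontal NeuN+ than in prefrontal NeuN-. In summed FPKM its ATPases went the other way, at 1071 and 1065 in prefrontal NeuN+ against 1407 and 1471 in prefrontal NeuN-. The lid summed to 476 and 466 against 646 and 654, and the other base subunits to 334 and 330 against 328 and 323. By mean scaled FPKM, 21 of the 31 genes were highest in prefrontal NeuN-, 9 in prefrontal NeuN+ and 1 in cerebellar NeuN+, while 27.3% of all features tested were highest in prefrontal NeuN-. The lowest group was cerebellar NeuN- for 21 of the 31, against 21.0% of all features tested. The full order seen in the sums was followed by 13 of the 31 genes (41.9%), against 5.8% of all features tested. In whole populations of nuclei, fewer nuclei of a type and less RNA per nucleus cannot be told apart.

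**Figure D1:**
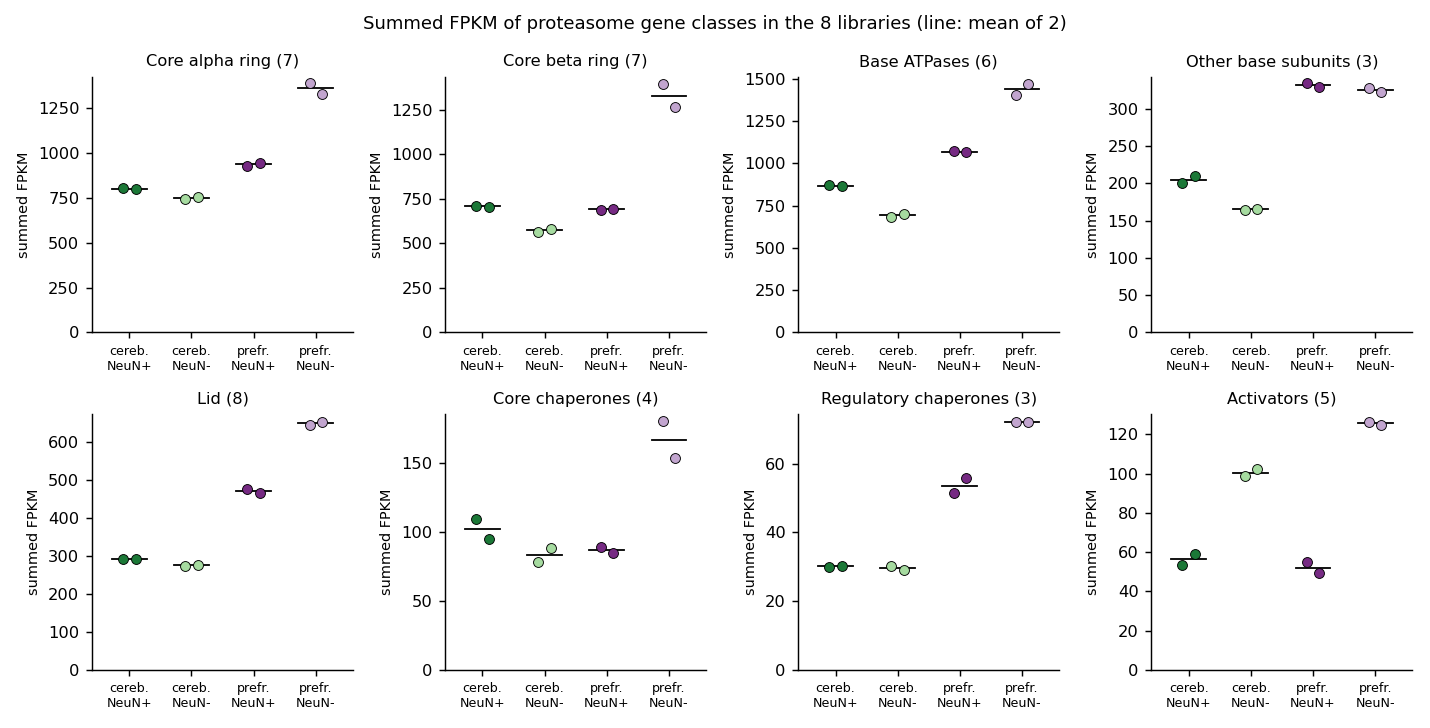
Summed FPKM (y axis, from 0) of 8 classes of proteasome genes in the 4 groups, with a point for each of the 8 libraries and a line for the mean of 2. The beta ring sums to 1393 and 1266 in prefrontal NeuN- and to no more than 712 elsewhere, whereas the other base subunits are level between the prefrontal groups and the activators are higher in NeuN- in both regions.

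**Figure D2:**
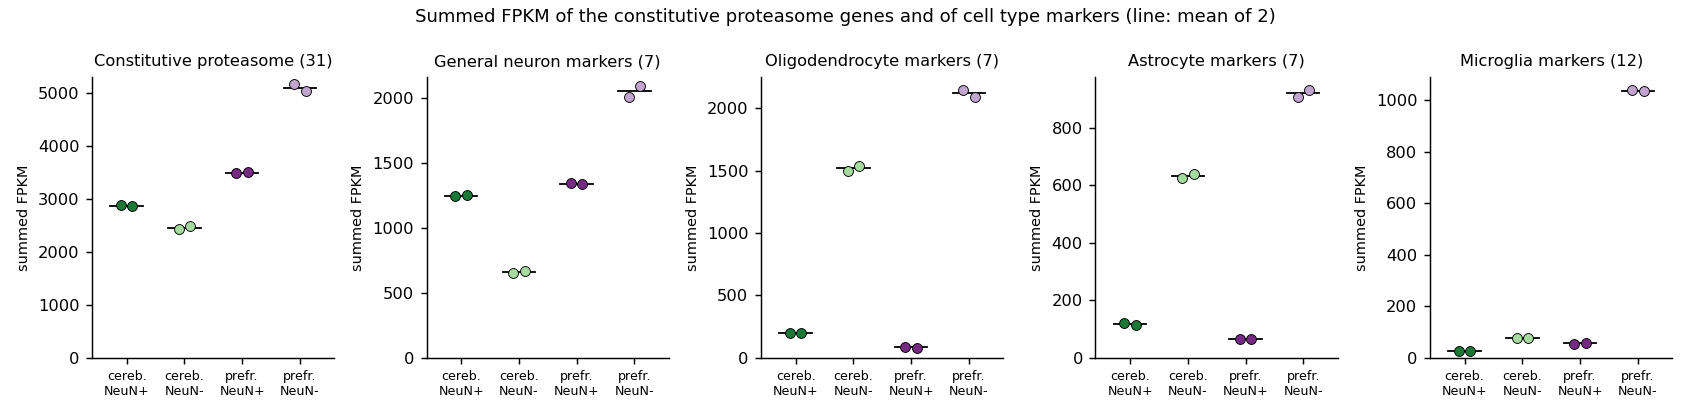
Summed FPKM (y axis, from 0) of the 31 constitutive proteasome genes and of the 4 cell type marker lists named above the panels, with a point per library and a line for the mean of 2. Every sum shown is highest in prefrontal NeuN-, where the FPKM of the whole library is also highest. The proteasome genes and the general neuron markers have their lowest libraries in cerebellar NeuN-, while oligodendrocyte and astrocyte markers are high in both NeuN- groups and microglia markers in prefrontal NeuN-.

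Between the gates, 15 of the 31 constitutive genes were called lower in prefrontal NeuN+ and higher in cerebellar NeuN+ than in the NeuN- nuclei of the same region with the scaling used, where 8.48% of all features were. Of these genes, Psma1, Psma5, Psmc5 and Psmd7 lost the prefrontal call with a common sum and with quantiles. With quantiles Psmb1 and Psmc3 also lost a call. In prefrontal cortex, 9 of the 48 tested genes were higher in NeuN+ than in NeuN- nuclei, 33 were lower and 6 were not called, where 35.0% of all features tested were called higher and 37.6% lower. In cerebellum 27 were higher in NeuN+, 8 were lower and 13 were not called, against 32.4% higher and 39.2% lower of all features. These counts include Psmb8 and Psmb9, which passed the filter in prefrontal libraries alone; without the pair 32 genes were lower in prefrontal NeuN+. Without the members that overlap another feature, the count of lower calls in cerebellum was 5. In the constitutive set the median log2 change was -0.44 in prefrontal cortex (8 higher, 22 lower, 1 not called) and 0.25 in cerebellum (21 higher, 3 lower, 7 not called), beside -0.01 and -0.04 over all features. Of the other constitutive genes, 6 of the 31 were higher in NeuN+ in both regions, against 15.2% of all features, Psmd12 was lower in both, against 20.3%, and Psma3 was higher in prefrontal and lower in cerebellar NeuN+, against 9.6%. Of the general neuron markers, 2 of 7 were higher, 3 lower and 2 not called in prefrontal NeuN+, and 7 of 7 were higher in cerebellar NeuN+. The cortical projection neuron markers, whose prefrontal sums are given above, were higher in sum in prefrontal NeuN+. The part of either list in the proteasome result was not tested. Between the prefrontal gates the median of all features was -0.19 without scaling, 0.14 with libraries rescaled to a common sum and 0.08 with quantile normalization. The higher share of all calls between these gates was 48.2% with the scaling used, 36.0% without scaling and 59.9% with a common sum. Relative to the median of all features, the constitutive median was lower in prefrontal NeuN+ by each scaling, at -0.42, -0.48, -0.36 and -0.26 with the scaling used, none, the common sum and quantiles. The constitutive genes called lower there numbered 22, 23, 17 and 15 in the same order. In cerebellum it was 0.29 above the median of all features with the scaling used and 0.16 above it with quantiles, where the higher share of calls was 55.8% and not 45.2%.

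**Figure D3:**
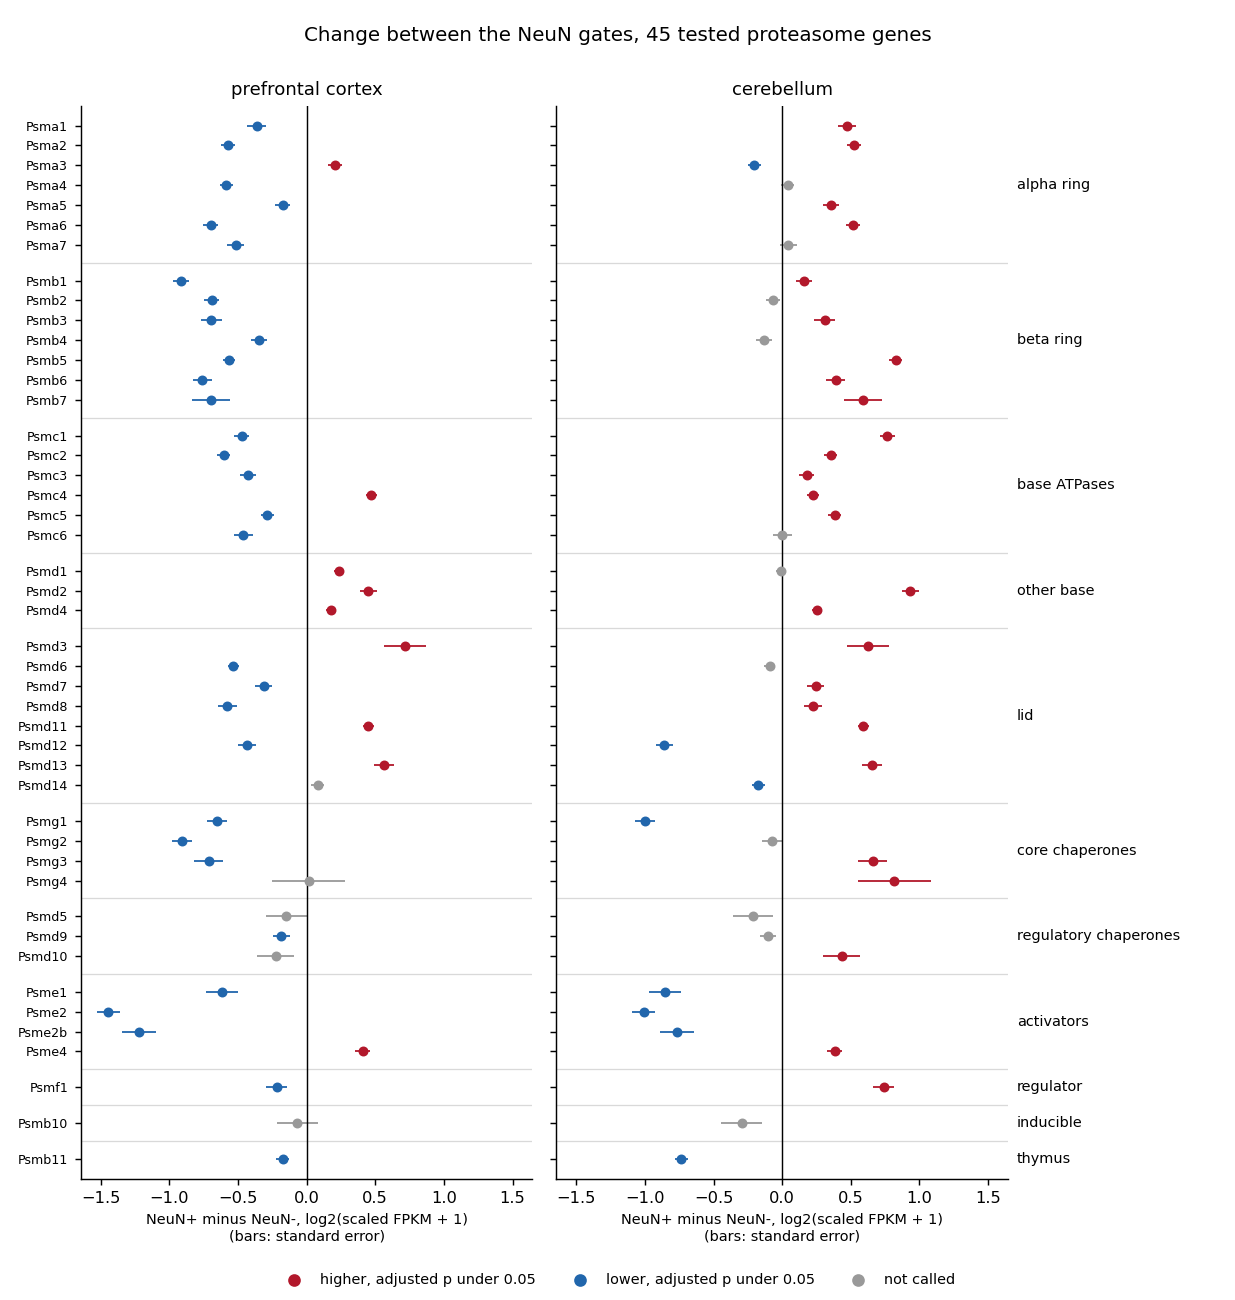
Change between NeuN+ and NeuN- nuclei in log2(scaled FPKM + 1) (x axis) for 45 tested proteasome genes by class (y axis), Psmb8 and Psmb9 left out, in prefrontal cortex on the left and cerebellum on the right. Points are limma estimates from 2 libraries a group with standard errors as bars, coloured by call. The beta ring lies left of 0 in prefrontal cortex, where all 7 genes were called lower, and 5 of its 7 genes were called higher in cerebellum.

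Between the regions, most proteasome genes were lower in cerebellar than in prefrontal nuclei in both gates. In NeuN+ nuclei this held more for the regulatory particle than for the core. Among NeuN+ nuclei 11 of 48 genes were higher in cerebellum and 33 lower, against 36.5% higher and 40.7% lower of all features. There 4 core genes were higher and 9 lower (median -0.25), and 1 regulatory particle gene was higher and 14 lower (median -0.64). The beta ring summed to 712 and 703 FPKM in cerebellar NeuN+ and to 690 and 694 in prefrontal NeuN+. Among NeuN- nuclei 1 gene was higher in cerebellum and 41 were lower, against 40.5% higher and 39.0% lower of all features. Without Psmb8 and Psmb9 the lower calls numbered 32 in NeuN+ and 39 in NeuN-. The constitutive median was -0.45 in NeuN+ and -1.09 in NeuN-, beside -0.03 and 0.02 over all features. In NeuN- the count of higher calls was 6 with a common sum and 5 with quantile normalization, where the median of all features was 0.26 and 0.07, and with a common sum 62.1% of all calls were higher and not 51.0%. The count was 2 with the replicate number as a block. Lower calls in NeuN- numbered 34 to 44 over the 3 other scalings. Microglia markers moved in the same direction: all 11 tested were lower in cerebellar NeuN- than in prefrontal NeuN-, and the 12 summed to 76.4 and 77.4 FPKM against 1040 and 1035. General neuron markers were lower in cerebellar NeuN- for 6 of 7 and higher for 1. The 5 cortical projection neuron markers summed to 2.00 and 2.13 FPKM in cerebellar NeuN- and 17.6 and 16.1 in prefrontal NeuN-. The 5 granule cell markers summed to 183 and 185 in cerebellar NeuN- and 3.93 and 5.08 in prefrontal NeuN-. Each of these 2 lists was low in 1 region, so its calls are not counted. Higher and lower calls numbered 2 and 5 of 7 oligodendrocyte, 1 and 3 of 7 astrocyte, and 2 and 1 of 4 endothelial and pericyte markers. The part of these lists in the proteasome result was not tested.

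**Figure D4:**
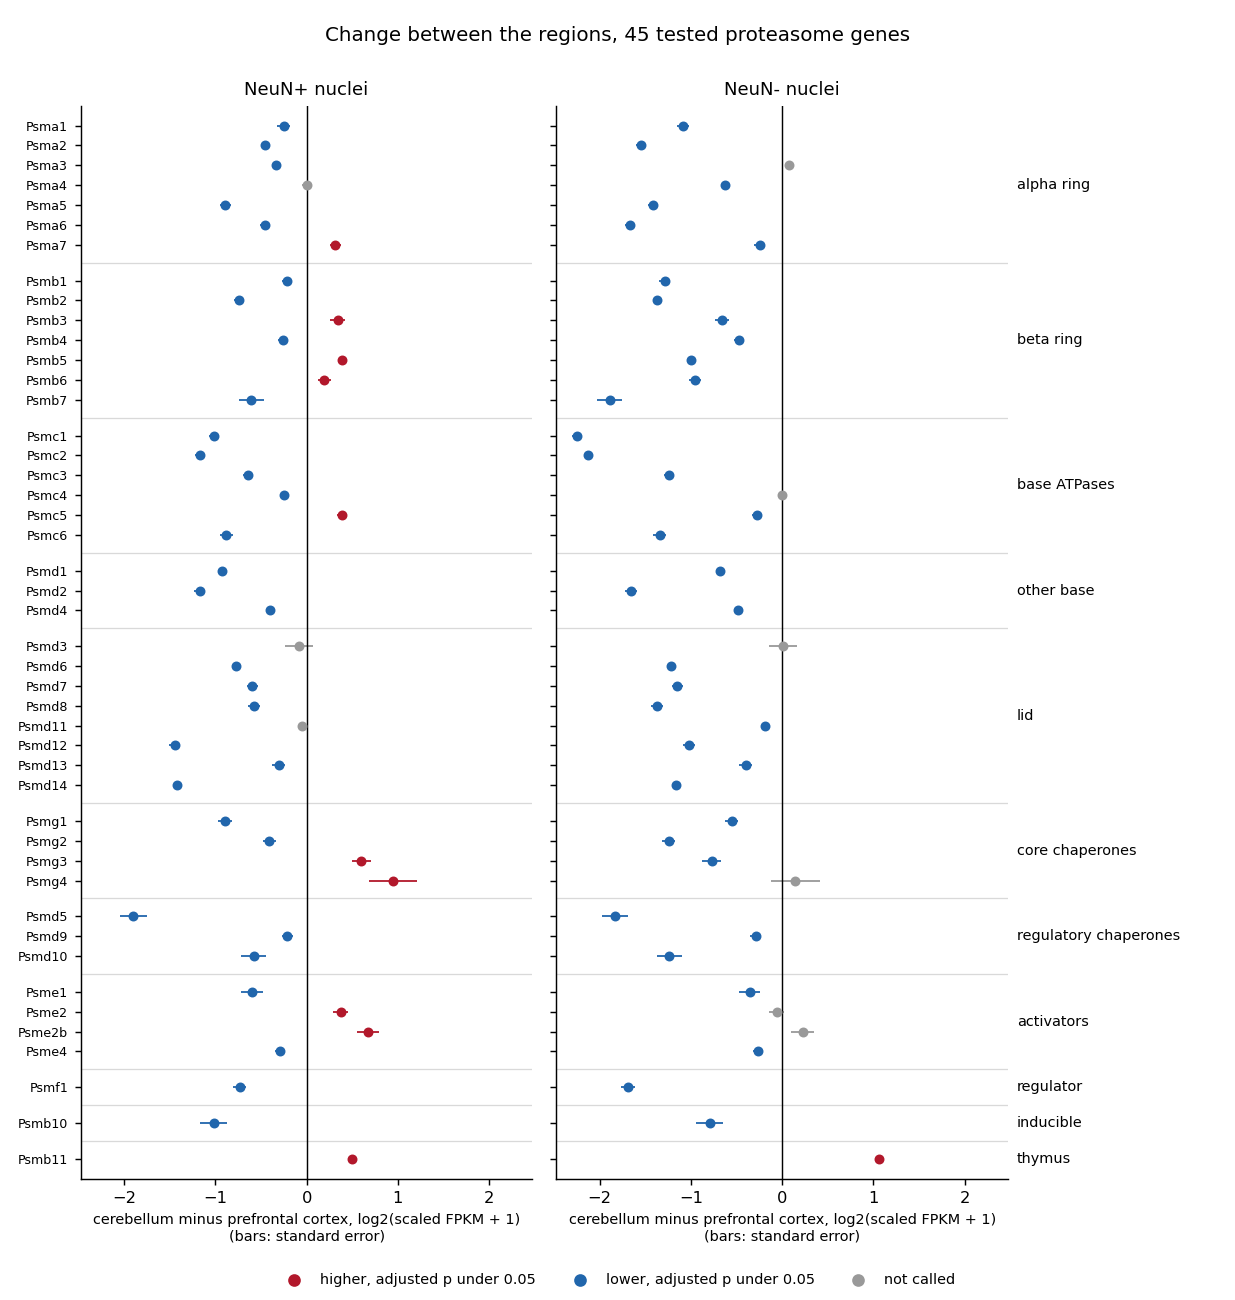
Change between cerebellum and prefrontal cortex in log2(scaled FPKM + 1) (x axis) for 45 tested proteasome genes by class (y axis), Psmb8 and Psmb9 left out, in NeuN+ nuclei on the left and NeuN- nuclei on the right. Points are limma estimates from 2 libraries a group with standard errors as bars, coloured by call. In NeuN- nuclei Psmb11 is the only point called higher, and Psmc1 and Psmc2 lie farthest to the left.

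The gate change differed between the regions for 36 of the 48 genes by the interaction of gate and region. It was higher in cerebellum for 29 and lower for 7, where 33.1% and 37.0% of all features were. The constitutive median of this difference was 0.56, beside -0.06 over all features, and 13 of 14 core genes were called higher. Without Psmb8 and Psmb9 the higher calls numbered 28. The 17 regulatory particle genes came to 9 higher, 4 lower and 4 not called with the scaling used, and to 12 higher and 0 lower without scaling, where the constitutive set came to 25 higher and 0 lower. The lower differences of Psma3, Psmc4, Psmd1, Psmd12, Psmd14 and Psmg1 were then between -0.19 (Psmd12) and -0.012 (Psmd1), with none called. Among the markers tested, 6 of 7 oligodendrocyte, 6 of 7 general neuron, 11 of 11 microglia and 3 of 7 astrocyte markers were also called higher for this difference. Called lower was 1 of 7 astrocyte markers. Granule cell markers were low in prefrontal cortex, cortical projection neuron markers in cerebellum, and endothelial and pericyte markers in NeuN+. No calls for this difference are therefore counted for those lists. The part of these cell types in the proteasome result was not tested. Without scaling, 34 of the 48 were called higher and 1 lower, with a median of 0.13 over all features and 57.6% of all calls higher. With a common sum the calls were 25 and 9, with a median of -0.23 and 37.7% of all calls higher, against 47.2% with the scaling used.

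Alpha ring genes, which form the gated ends of the core, followed the general pattern except for Psma3. In prefrontal NeuN+, 6 of 7 were called lower than in NeuN- and Psma3 was called higher; in cerebellar NeuN+ 4 were called higher, Psma3 lower and 2 were not called. Psma6 stood at 59.3 and 54.2 scaled FPKM in cerebellar NeuN+, 39.1 and 39.6 in cerebellar NeuN-, 78.8 and 77.2 in prefrontal NeuN+, and 125 and 129.8 in prefrontal NeuN-. It was the lowest gene of the ring, and its groups did not overlap. The change between gates was -0.70 ± 0.054 (adjusted p = 3.78e-05) in prefrontal cortex and 0.52 ± 0.054 (adjusted p = 0.000154) in cerebellum. Psma3 had 239.8 and 242 scaled FPKM in cerebellar NeuN+, 275 and 279.6 in cerebellar NeuN-, 294 and 312 in prefrontal NeuN+, and 267 and 258 in prefrontal NeuN-. Psma3 was the highest of the ring and varied least between groups. Its gate changes, 0.21 ± 0.048 (adjusted p = 0.0071) in prefrontal cortex and -0.20 ± 0.048 (adjusted p = 0.00763) in cerebellum, run against the rest of the ring, and the prefrontal change was -0.030 and not called without scaling. It overlaps the feature 3110056K07Rik, and since the use of strand is not stated, reads of either could count for both. Psma5 was called lower in prefrontal NeuN+ at -0.17, which turned to 0.04 with a common sum and 0.13 with quantiles. The prefrontal call of Psma1 was lost with a common sum and with quantiles. Psma1, Psma2, Psma4 and Psma7 changed by -0.36, -0.57, -0.59 and -0.52 between the prefrontal gates, and Psma4, which overlaps AY074887, and Psma7 were not called between the cerebellar gates. Between the regions, 5 of the 7 were called lower and Psma7 higher in cerebellar NeuN+, at 0.31, and 6 were called lower in cerebellar NeuN-, of which Psma7, at -0.25, turned positive with a common sum or quantiles.

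The beta ring carries the active sites, and all 7 of its genes were lower in prefrontal NeuN+ than in NeuN-, with 5 higher and 2 not called in cerebellar NeuN+. The interaction was called for 7 of 7, among them Psmb4 at 0.22, which was at -0.00071 with a common sum. Psmb5 was at 129.8 and 133 scaled FPKM in cerebellar NeuN+, 71.9 and 75.5 in cerebellar NeuN-, 102 and 97.7 in prefrontal NeuN+, and 151 and 146 in prefrontal NeuN-. It encodes the subunit that cuts after hydrophobic residues. Cerebellar NeuN+ stood above cerebellar NeuN- and above prefrontal NeuN+, and prefrontal NeuN- was highest of all. The cerebellar gate change of 0.83 ± 0.047 (adjusted p = 9.11e-06) was the next largest rise after that of Psmd2, the prefrontal change was -0.56 ± 0.047 (adjusted p = 5.53e-05), and the interaction was 1.39 ± 0.066 (adjusted p = 1.07e-05). Psmb5 overlaps the microRNA feature Mir686. Psmb6 stood at 189 and 176 scaled FPKM in cerebellar NeuN+, 145 and 133 in cerebellar NeuN-, 156 and 163 in prefrontal NeuN+, and 283 and 259 in prefrontal NeuN-. Its product cuts after acidic residues, and it was the highest gene of the ring by mean over all 8 libraries. The gate change was -0.76 ± 0.070 (adjusted p = 8.95e-05) in prefrontal cortex and 0.39 ± 0.070 (adjusted p = 0.00217) in cerebellum, with no overlap between gates. Psmb7 had 4.87 and 5.21 scaled FPKM in cerebellar NeuN+, 3.03 and 3.02 in cerebellar NeuN-, 9.76 and 6.87 in prefrontal NeuN+, and 13.7 and 14.2 in prefrontal NeuN-. This catalytic subunit, which cuts after basic residues, had the lowest FPKM of the ring, and its prefrontal NeuN+ replicates differed 1.42-fold. It changed by -0.70 ± 0.14 (adjusted p = 0.00352) between the prefrontal gates and 0.59 ± 0.14 (adjusted p = 0.00786) between the cerebellar gates, and its fall in cerebellar NeuN- against prefrontal NeuN-, -1.89 ± 0.14 (adjusted p = 2.1e-05), was among the 3 largest. Of the structural subunits, Psmb1 had the largest prefrontal change, -0.92, and a cerebellar change of 0.16 whose adjusted p of 0.0486 rose to between 0.0598 and 0.262 in 11 alternatives. Psmb2 changed by -0.69 and -0.07 between the prefrontal and the cerebellar gates, Psmb3 by -0.69 and 0.31, and Psmb4 by -0.35 and -0.13. The cerebellar changes of Psmb2 and Psmb4 were not called, and the prefrontal call of Psmb4 was lost with a common sum and with quantiles. In cerebellar NeuN+ against prefrontal NeuN+, Psmb3, Psmb5 and Psmb6 were higher and the other 4 lower, although the call of Psmb6 was lost without either prefrontal NeuN+ library or without cerebellar NeuN+ replicate 1, while all 7 were lower in cerebellar NeuN- than in prefrontal NeuN-.

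Promoter sequences were matched for 42 of the 50 symbols, from RefSeq on GRCm38.p6, each running from 250 bases before to 50 after the start of the gene. A factor known to drive proteasome genes when the proteasome fails is Nfe2l1, which binds antioxidant response elements. The core of that element, TGACNNNGC on either strand, was found in promoters of 6 of the 42 genes (Psmb5, Psmb6, Psmc6, Psmd12, Psmd9 and Psme4), of which 4 are among the 25 constitutive genes matched, and in 12.4% of all 32851 promoters. The CCAAT box was found in 15 of the 42 and in 37.4% of all promoters. A gene was counted if any of its promoters matched, and Psma6, Psmc2 and Psme2 have more than 1. The shares of all promoters count each promoter by itself, so the units differ. Nfe2l1 itself was at 4.60 and 4.23 FPKM in cerebellar NeuN+, 2.95 and 3.81 in cerebellar NeuN-, 5.17 and 5.16 in prefrontal NeuN+, and 4.29 and 3.11 in prefrontal NeuN-. It was higher in prefrontal NeuN+ (log2 change 0.59, adjusted p = 0.0074) and not called between the cerebellar gates. The promoters of the constitutive catalytic genes Psmb5 and Psmb6, which changed direction between the regions, and of their inducible counterparts Psmb8 and Psmb9 are shown for comparison, 5′ to 3′ on the strand of the gene. Capitals mark TGACNNNGC in the first 2 and the gamma-activated site TTCNNNGAA or the interferon-stimulated core GAAANNGAA in the others. The last 2 share the letters GAA, and each motif was searched by itself on both strands. Psmb5 lies on the minus strand at chr14:54617946-54618245 with its match starting 47 bases before the start, and Psmb6 on the plus strand at chr11:70525107-70525406 with its match starting 9 bases before. Psmb8 lies on the plus strand at chr17:34197945-34198244 with a gamma-activated letter match starting 97 bases before the start, and Psmb9 on the minus strand at chr17:34187281-34187580 with neither interferon motif in the window.
Psmb5: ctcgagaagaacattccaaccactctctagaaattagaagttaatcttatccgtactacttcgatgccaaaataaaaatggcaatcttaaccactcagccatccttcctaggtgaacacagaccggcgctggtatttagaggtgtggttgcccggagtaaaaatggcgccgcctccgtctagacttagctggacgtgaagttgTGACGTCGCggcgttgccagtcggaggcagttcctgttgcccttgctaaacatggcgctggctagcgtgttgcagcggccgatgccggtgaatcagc
Psmb6: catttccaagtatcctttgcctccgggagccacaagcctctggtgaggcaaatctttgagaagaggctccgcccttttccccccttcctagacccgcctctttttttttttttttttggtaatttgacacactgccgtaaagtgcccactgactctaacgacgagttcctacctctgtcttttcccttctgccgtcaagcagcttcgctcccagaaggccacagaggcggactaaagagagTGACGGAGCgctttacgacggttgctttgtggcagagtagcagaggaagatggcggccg
Psmb8: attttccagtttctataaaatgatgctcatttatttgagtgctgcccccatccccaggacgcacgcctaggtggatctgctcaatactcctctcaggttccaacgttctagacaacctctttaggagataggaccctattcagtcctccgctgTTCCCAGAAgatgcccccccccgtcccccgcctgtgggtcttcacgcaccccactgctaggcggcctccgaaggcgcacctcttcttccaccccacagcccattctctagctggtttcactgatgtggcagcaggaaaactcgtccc
Psmb9: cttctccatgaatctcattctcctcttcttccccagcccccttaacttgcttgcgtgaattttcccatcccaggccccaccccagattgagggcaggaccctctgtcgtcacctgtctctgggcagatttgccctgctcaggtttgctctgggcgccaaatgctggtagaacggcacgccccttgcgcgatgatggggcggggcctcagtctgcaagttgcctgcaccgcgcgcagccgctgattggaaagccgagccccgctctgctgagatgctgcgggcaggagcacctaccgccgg
Letters of TTCNNNGAA were found in 3 of the 42 genes (Psmb8, Psmd2 and Psmg1) and 8.3% of all promoters, and those of GAAANNGAA in 7 of the 42, Psme1 among them, and 8.6% of all promoters.

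The inducible catalytic subunits were at far lower levels than their constitutive partners, except Psmb10. Psmb8 was at 0.120 and 0.0529 scaled FPKM in cerebellar NeuN+, 0 and 0.106 in cerebellar NeuN-, 1.35 and 0.873 in prefrontal NeuN+, and 1.08 and 0.788 in prefrontal NeuN-. At about 1 FPKM in prefrontal cortex and near 0 in cerebellum, Psmb8 passed the filter only through the prefrontal libraries. It reached 1.31% and 0.894% of the FPKM of Psmb5 in prefrontal NeuN+, 0.715% and 0.538% in prefrontal NeuN-, and 0.14% or less in cerebellum. The filter kept it for those libraries, so no test between the regions is given, and the prefrontal gates were not called apart. Psmb9 stood at 0 and 0 scaled FPKM in cerebellar NeuN+, 0.110 and 0.0893 in cerebellar NeuN-, 0 and 0 in prefrontal NeuN+, and 3.57 and 1.96 in prefrontal NeuN-. It passed the filter only through the prefrontal NeuN- libraries, and both NeuN+ groups are listed at 0, so neither a fold nor a test is given. Between the prefrontal NeuN- replicates the FPKM differed 1.86-fold. Psmb10 had 9.01 and 11.4 scaled FPKM in cerebellar NeuN+, 13.7 and 11.8 in cerebellar NeuN-, 23.4 and 19.96 in prefrontal NeuN+, and 25.1 and 20.5 in prefrontal NeuN-. It stood above its constitutive partner, at 145% to 452% of the FPKM of Psmb7. Psmb7 was low for its ring, with group means of 3.03 to 13.95 scaled FPKM beside ring medians of 76.9 to 189. Psmb10 lay below those medians in every group. Neither gate change was called, and it was lower in cerebellum than in prefrontal cortex in NeuN+, -1.02 ± 0.15 (adjusted p = 0.000691), and in NeuN-, -0.79 ± 0.15 (adjusted p = 0.00233). All 11 tested microglia markers were lower in prefrontal NeuN+ than in NeuN-, where the 12 summed to 54.8 and 58.9 FPKM against 1040 and 1035, and 9 of 11 were lower in cerebellar NeuN+ (24.7 and 27.9 against 76.4 and 77.4 FPKM). None of the 12 was at 0 in the prefrontal libraries, and 1 or 2 were at 0 in each cerebellar library. Endothelial and pericyte markers, 8 genes, summed to 1.03 and 0.704 FPKM in cerebellar NeuN+, 59.5 and 66.3 in cerebellar NeuN-, 2.33 and 3.08 in prefrontal NeuN+, and 113 and 123 in prefrontal NeuN-. Their part in the levels of Psmb9 was not tested. Psmb11 was at 36.99 and 37.1 scaled FPKM in cerebellar NeuN+, 63.5 and 61.3 in cerebellar NeuN-, 25.9 and 26.00 in prefrontal NeuN+, and 28.4 and 30.4 in prefrontal NeuN-. Psmb11, known from the thymus cortex, had a higher FPKM in every library than Psmb7, the lowest gene of the beta ring. Psmb11 was the only gene higher in cerebellar NeuN- than in prefrontal NeuN-, at 1.06 ± 0.047 (adjusted p = 2.74e-06), and lower in cerebellar NeuN+ than NeuN-, at -0.74 ± 0.047 (adjusted p = 1.55e-05). Its prefrontal change of -0.17 was at 0.037 and not called with a common sum. On mm9 its feature, chr14:55244147-55248393, lies close to Psmb5 at chr14:55232957-55236832 and overlaps no other feature.

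**Figure D5:**
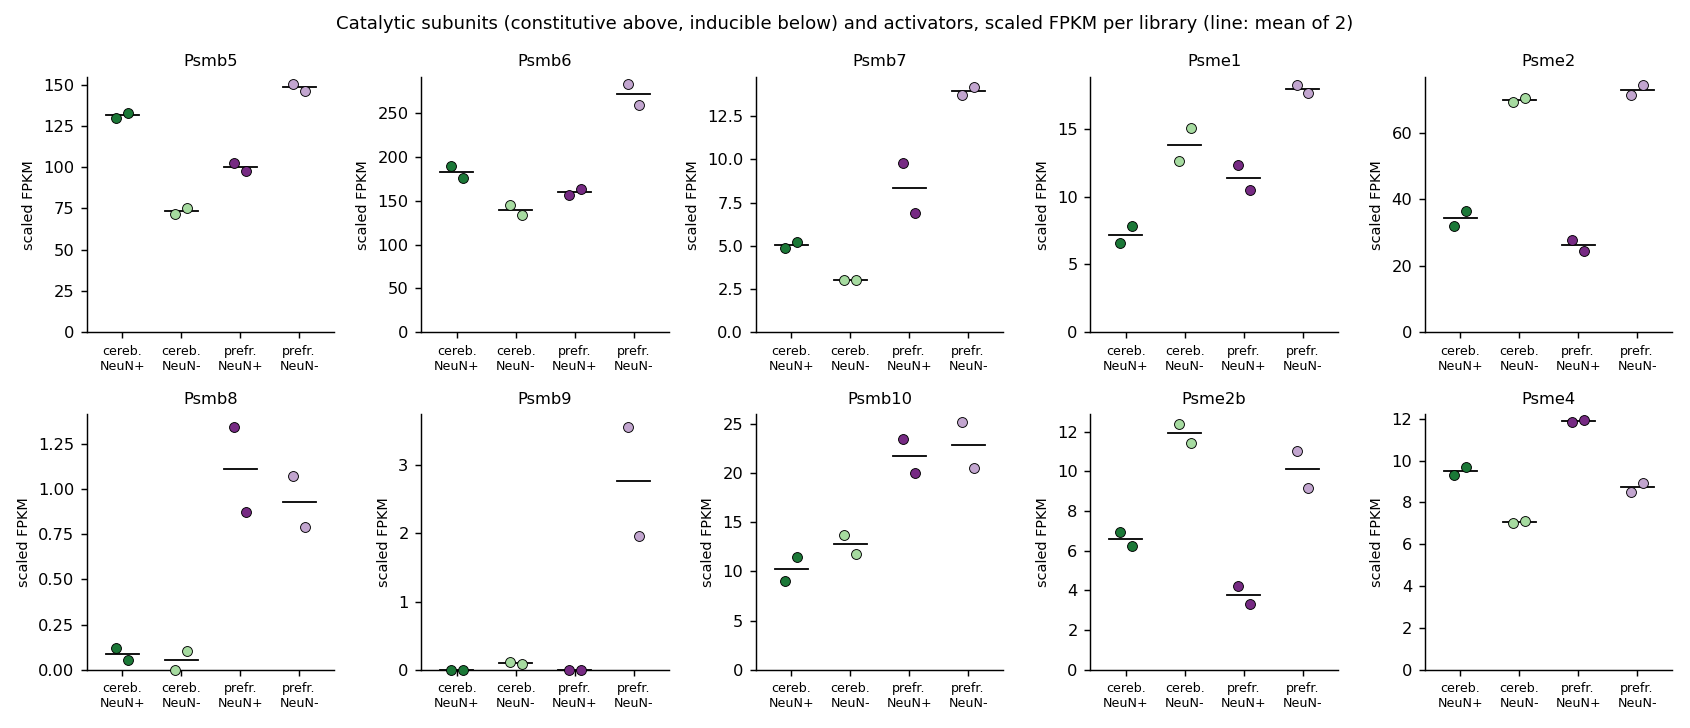
Scaled FPKM (y axes, each from 0) of the constitutive catalytic genes Psmb5, Psmb6 and Psmb7, the inducible Psmb8, Psmb9 and Psmb10 below them, and 4 activators, with a point per library and a line for the mean of 2. Psmb9 is at 3.57 and 1.96 in prefrontal NeuN- and at 0.11 or less elsewhere, and Psme2 is at 69.3 to 74.2 in the NeuN- libraries of both regions and at 24.5 to 36.6 in the NeuN+ libraries.

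Base ATPases, which unfold the substrate and open the core, were lower in prefrontal NeuN+ for 5 of 6 and higher in cerebellar NeuN+ for 5 of 6. The exception in prefrontal cortex was Psmc4. Psmc4 stood at 301 and 299.6 scaled FPKM in cerebellar NeuN+, 256 and 259 in cerebellar NeuN-, 364 and 352 in prefrontal NeuN+, and 254 and 261 in prefrontal NeuN-. It was the highest ATPase on average, and prefrontal NeuN+ lay above the 3 other groups. Its gate change was 0.47 ± 0.043 (adjusted p = 8.4e-05) in prefrontal cortex and 0.22 ± 0.043 (adjusted p = 0.00313) in cerebellum, and between cerebellar and prefrontal NeuN- it was not called at -0.00 but was called higher with a common sum or quantiles. Psmc1 had 92.9 and 87.9 scaled FPKM in cerebellar NeuN+, 51.6 and 53.9 in cerebellar NeuN-, 184 and 183 in prefrontal NeuN+, and 246 and 264 in prefrontal NeuN-. The 2 cerebellar groups lay far below the prefrontal ones, and the fall in cerebellar NeuN-, -2.25 ± 0.053 (adjusted p = 3.1e-07), was the largest of all proteasome genes in that comparison. Psmc2 was at 50.5 and 49.9 scaled FPKM in cerebellar NeuN+, 39.3 and 38.9 in cerebellar NeuN-, 115 and 114 in prefrontal NeuN+, and 167 and 181 in prefrontal NeuN-. A similar fall of -2.13 ± 0.048 (adjusted p = 2.79e-07) made it the next largest. Between the gates Psmc1 changed by -0.47 in prefrontal cortex and 0.77 in cerebellum, and Psmc2 by -0.60 and 0.35. Psmc6 stood at 24.4 and 23.8 scaled FPKM in cerebellar NeuN+, 23.4 and 24.8 in cerebellar NeuN-, 42.5 and 48.2 in prefrontal NeuN+, and 61.4 and 64.05 in prefrontal NeuN-. Psmc6 was the lowest ATPase, with -0.46 ± 0.069 (adjusted p = 0.000919) between the prefrontal gates and no call in cerebellum. Psmc3 changed by -0.43 and 0.18 between the prefrontal and the cerebellar gates, and Psmc5 by -0.29 and 0.38. The prefrontal call of Psmc5 was lost with a common sum (-0.07) and with quantiles (-0.06), and both calls of Psmc3 were lost with quantiles (-0.10 and 0.16). Psmc5 was the only ATPase called higher in cerebellar NeuN+ than in prefrontal NeuN+, at 0.39, and its fall in cerebellar NeuN- of -0.28 turned to 0.03 with a common sum.

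The 3 other base subunits, scaffold and ubiquitin receptor genes, were called higher in prefrontal NeuN+ for 3 of 3 with the scaling used, but for 1 of 3 without scaling. Psmd2 had 40.3 and 44.4 scaled FPKM in cerebellar NeuN+, 22.5 and 20.8 in cerebellar NeuN-, 98.5 and 94.8 in prefrontal NeuN+, and 69.6 and 71.5 in prefrontal NeuN-. Its product is a scaffold that docks ubiquitin-like domains. Prefrontal NeuN+ was highest and cerebellar NeuN- lowest, with changes of 0.45 ± 0.063 (adjusted p = 0.000697) between the prefrontal gates and 0.93 ± 0.063 (adjusted p = 1.96e-05) between the cerebellar gates, which was the largest rise among the proteasome genes in cerebellar NeuN+. Psmd1 was at 39.2 and 38.9 scaled FPKM in cerebellar NeuN+, 38.7 and 39.9 in cerebellar NeuN-, 76.05 and 74.4 in prefrontal NeuN+, and 63.6 and 63.8 in prefrontal NeuN-. The companion scaffold differed by 0.24 ± 0.039 (adjusted p = 0.00142) between the prefrontal gates, or 0.0021 without scaling (adjusted p = 0.968), and was not called between the cerebellar ones; it overlaps the serotonin receptor gene Htr2b. Psmd4 stood at 127 and 131 scaled FPKM in cerebellar NeuN+, 108 and 109 in cerebellar NeuN-, 172 and 172 in prefrontal NeuN+, and 152 and 152 in prefrontal NeuN-. This ubiquitin receptor was the highest of the 3, and its prefrontal change of 0.18 was at -0.06 without scaling. In both gates all 3 were lower in cerebellum than in prefrontal cortex.

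Lid genes divided. In prefrontal NeuN+ Psmd3, Psmd11 and Psmd13 were higher, Psmd6, Psmd7, Psmd8 and Psmd12 were lower, and Psmd14 was not called; in cerebellar NeuN+ 5 were higher, 2 lower and 1 not called. Psmd3 had 6.27 and 6.25 scaled FPKM in cerebellar NeuN+, 3.45 and 3.97 in cerebellar NeuN-, 6.99 and 6.46 in prefrontal NeuN+, and 2.98 and 4.53 in prefrontal NeuN-. The lowest lid gene, it had the largest rise between the prefrontal gates, 0.72 ± 0.15 (adjusted p = 0.00495), and the prefrontal NeuN- replicates differed 1.49-fold. Psmd13 was at 9.77 and 11.1 scaled FPKM in cerebellar NeuN+, 6.44 and 6.07 in cerebellar NeuN-, 13.2 and 12.99 in prefrontal NeuN+, and 8.38 and 8.76 in prefrontal NeuN-. It rose next most in prefrontal NeuN+, by 0.56 ± 0.072 (adjusted p = 0.000458), and by 0.66 ± 0.072 (adjusted p = 0.000202) in cerebellar NeuN+. Psmd11, which changed by 0.45 and 0.59, was also higher in NeuN+ in both regions. Psmd12 stood at 30.8 and 28.99 scaled FPKM in cerebellar NeuN+, 56.2 and 53.9 in cerebellar NeuN-, 82.2 and 84.1 in prefrontal NeuN+, and 107 and 119 in prefrontal NeuN-. Psmd12 was lower in NeuN+ in both regions, with log2 changes of -0.44 ± 0.063 (adjusted p = 0.000814) in prefrontal cortex and -0.86 ± 0.063 (adjusted p = 2.88e-05) in cerebellum, and the interaction was -0.42 ± 0.089 (adjusted p = 0.00513). Psmd14 had 27.3 and 27.9 scaled FPKM in cerebellar NeuN+, 30.1 and 32.5 in cerebellar NeuN-, 74.7 and 76.2 in prefrontal NeuN+, and 70.6 and 72.00 in prefrontal NeuN-. Its product is the enzyme that removes ubiquitin chains before degradation. It was lower in cerebellum, with log2 changes of -1.42 ± 0.049 (adjusted p = 8.18e-07) in NeuN+ and -1.16 ± 0.049 (adjusted p = 2.14e-06) in NeuN-, and between the cerebellar gates it changed by -0.17 ± 0.049 (adjusted p = 0.017). Psmd6 was at 50.9 and 50.9 scaled FPKM in cerebellar NeuN+, 53.7 and 54.8 in cerebellar NeuN-, 88.8 and 86.2 in prefrontal NeuN+, and 129 and 125 in prefrontal NeuN-. The highest lid gene on average, it was lower in prefrontal NeuN+, at -0.53 ± 0.040 (adjusted p = 3.37e-05). Psmd7 changed by -0.31 and 0.24 between the prefrontal and the cerebellar gates, and Psmd8 by -0.58 and 0.22. The prefrontal call of Psmd7 was lost with a common sum (-0.097) and with quantiles (-0.0999), and that of Psmd12 with quantiles (-0.18). The region falls in cerebellar NeuN- covered 7 of 8 lid genes, with Psmd3 not called, and that of Psmd11, -0.19, turned positive with a common sum or quantiles.

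Assembly chaperones of the core behaved unevenly. Psmg1 pairs with Psmg2, and Psmg3 with Psmg4, to build the alpha ring. Psmg1 stood at 9.16 and 7.86 scaled FPKM in cerebellar NeuN+, 18.2 and 17.6 in cerebellar NeuN-, 17.1 and 16.2 in prefrontal NeuN+, and 26.4 and 27.1 in prefrontal NeuN-. Psmg1 was lower in NeuN+ in both regions, with log2 changes of -0.65 ± 0.073 (adjusted p = 0.000227) in prefrontal cortex and -0.9961 ± 0.073 (adjusted p = 2.81e-05) in cerebellum. Its partner Psmg2 changed by -0.91 in prefrontal cortex and was not called in cerebellum. Psmg3 had 48.9 and 41.03 scaled FPKM in cerebellar NeuN+, 26.3 and 29.7 in cerebellar NeuN-, 29.96 and 28.4 in prefrontal NeuN+, and 51.4 and 45.7 in prefrontal NeuN-. For Psmg3 the gates crossed, with -0.71 ± 0.10 (adjusted p = 0.000822) in prefrontal cortex, 0.66 ± 0.10 (adjusted p = 0.00116) in cerebellum and an interaction of 1.37 ± 0.15 (adjusted p = 0.000228). Psmg4 was at 34.1 and 26.2 scaled FPKM in cerebellar NeuN+, 13.5 and 20.3 in cerebellar NeuN-, 16.1 and 14.1 in prefrontal NeuN+, and 18.9 and 11.7 in prefrontal NeuN-. Its replicates differed by up to 1.65-fold, the prefrontal gates overlapped, and the cerebellar change of 0.82 ± 0.27 (adjusted p = 0.0292) and the NeuN+ region change of 0.95 ± 0.27 (adjusted p = 0.0149) carry the widest errors among the called genes. Of the chaperones of regulatory particle assembly, Psmd5 stood apart by region. Psmd5 stood at 5.43 and 4.52 scaled FPKM in cerebellar NeuN+, 5.88 and 5.96 in cerebellar NeuN-, 18.6 and 24.2 in prefrontal NeuN+, and 21.5 and 26.1 in prefrontal NeuN-. It was lower in cerebellum in NeuN+, -1.901 ± 0.15 (adjusted p = 2.84e-05), the largest fall in that comparison, and in NeuN-, -1.83 ± 0.15 (adjusted p = 3.22e-05), with neither gate change called. Psmd9 had 15.7 and 15.9 scaled FPKM in cerebellar NeuN+, 16.6 and 17.6 in cerebellar NeuN-, 19.04 and 17.9 in prefrontal NeuN+, and 21.97 and 20.3 in prefrontal NeuN-. Psmd9 had the highest mean of these chaperones over all groups, and its prefrontal change of -0.18 turned to 0.02 with a common sum. Psmd10 was at 9.73 and 10.5 scaled FPKM in cerebellar NeuN+, 8.60 and 6.07 in cerebellar NeuN-, 15.6 and 15.6 in prefrontal NeuN+, and 19.2 and 17.6 in prefrontal NeuN-. Psmd10, also known as gankyrin, changed by 0.43 ± 0.14 (adjusted p = 0.0268) between the cerebellar gates and was not called between the prefrontal gates. The cerebellar call was lost in a fit to those 2 groups, without either cerebellar NeuN+ library, and without cerebellar NeuN- replicate 2, where the change was 0.21.

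The activators split by family. Psme1 and Psme2 form the interferon-inducible ring that opens the core without ubiquitin, and both were lower in NeuN+ nuclei in both regions. Psme2 stood at 31.96 and 36.6 scaled FPKM in cerebellar NeuN+, 69.3 and 70.4 in cerebellar NeuN-, 27.8 and 24.5 in prefrontal NeuN+, and 71.4 and 74.2 in prefrontal NeuN-. NeuN+ and NeuN- libraries did not overlap in either region, with -1.44 ± 0.082 (adjusted p = 9.41e-06) in prefrontal cortex and -1.01 ± 0.082 (adjusted p = 4.66e-05) in cerebellum. Psme1 had 6.56 and 7.81 scaled FPKM in cerebellar NeuN+, 12.6 and 15.04 in cerebellar NeuN-, 12.3 and 10.4 in prefrontal NeuN+, and 18.2 and 17.6 in prefrontal NeuN-. The gate change was -0.62 ± 0.12 (adjusted p = 0.00309) in prefrontal cortex and -0.85 ± 0.12 (adjusted p = 0.000622) in cerebellum, and Psme1 overlaps Emc9. Psme2b was at 6.92 and 6.25 scaled FPKM in cerebellar NeuN+, 12.4 and 11.4 in cerebellar NeuN-, 4.23 and 3.31 in prefrontal NeuN+, and 11.03 and 9.16 in prefrontal NeuN-. Psme2b is a near-identical copy of Psme2, so how the reads were divided between them is uncertain, and it overlaps 9930111J21Rik1. It was lower in NeuN+, with log2 changes of -1.22 ± 0.12 (adjusted p = 0.000143) in prefrontal cortex and -0.77 ± 0.12 (adjusted p = 0.0013) in cerebellum, and higher in cerebellar than in prefrontal NeuN+ by 0.68 ± 0.12 (adjusted p = 0.00214). Psme4 stood at 9.31 and 9.70 scaled FPKM in cerebellar NeuN+, 7.002 and 7.11 in cerebellar NeuN-, 11.8 and 11.96 in prefrontal NeuN+, and 8.52 and 8.92 in prefrontal NeuN-. Psme4, the large single-chain activator, went the other way, higher in NeuN+ by 0.41 ± 0.053 (adjusted p = 0.000489) in prefrontal cortex and 0.38 ± 0.053 (adjusted p = 0.000644) in cerebellum; a region fall of -0.27 in NeuN- was at 0.0017 with a common sum. Psme3 had 0.381 and 0.224 scaled FPKM in cerebellar NeuN+, 0.494 and 0.514 in cerebellar NeuN-, 0.854 and 0.553 in prefrontal NeuN+, and 0.612 and 0.783 in prefrontal NeuN-. Psme3, the nuclear activator, was under 1 FPKM in every library and was not tested. Psmf1 was at 9.67 and 8.67 scaled FPKM in cerebellar NeuN+, 4.81 and 5.37 in cerebellar NeuN-, 16.3 and 15.5 in prefrontal NeuN+, and 18.2 and 19.1 in prefrontal NeuN-. Psmf1 binds the core and inhibits it in vitro. Between the gates it changed by -0.22 ± 0.075 (adjusted p = 0.036) in prefrontal cortex and 0.74 ± 0.075 (adjusted p = 0.000138) in cerebellum. The prefrontal call was lost with a common sum (-0.012), with quantiles (-0.15) and with the replicate number as a block (adjusted p = 0.0558). Summed microglia, astrocyte and endothelial markers were also lower in NeuN+ in both regions. The astrocyte markers, 7 genes, summed to 120.0 and 115 FPKM in cerebellar NeuN+, 627 and 639 in cerebellar NeuN-, 65.8 and 65.7 in prefrontal NeuN+, and 907 and 934 in prefrontal NeuN-. Between cerebellar and prefrontal NeuN-, whose microglia sums are given above, Psme2 was not called, at -0.06 ± 0.082 (adjusted p = 0.531), and its direction turned with a common sum or quantiles. The part of these cell types in the activator levels was not tested.

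The 2 remaining matches were Psmc3ip and Psma8. Psmc3ip stood at 9.39 and 9.19 scaled FPKM in cerebellar NeuN+, 5.77 and 5.75 in cerebellar NeuN-, 4.86 and 5.11 in prefrontal NeuN+, and 9.76 and 10.5 in prefrontal NeuN-. It changed by -0.90 ± 0.061 (adjusted p = 2.11e-05) between the prefrontal gates and 0.61 ± 0.061 (adjusted p = 0.000128) between the cerebellar gates, with an interaction of 1.501 ± 0.086 (adjusted p = 1.93e-05), and it overlaps Mlx. Psma8, the alpha subunit of the testis, was listed at 0 in all 8 libraries and was not tested.

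Of 17 partner genes found in the tables, 2 were higher, 9 lower and 6 not called in prefrontal NeuN+, and 5 were higher, 3 lower and 9 not called in cerebellar NeuN+. Over all features tested, 35.0% were higher and 37.6% lower in prefrontal NeuN+, and 32.4% higher and 39.2% lower in cerebellar NeuN+. Fbxo7, an F-box protein that binds Psmf1, was at 1.38 and 2.63 FPKM in cerebellar NeuN+, 17.6 and 18.5 in cerebellar NeuN-, 3.46 and 2.43 in prefrontal NeuN+, and 15.7 and 14.3 in prefrontal NeuN-. Its log2 change was -1.82 in prefrontal cortex and -2.70 in cerebellum (adjusted p = 0.00027 and 3.7e-05). Akirin2, which carries assembled proteasomes into the nucleus, was at 12.1 and 12.6 FPKM in cerebellar NeuN+, 4.54 and 5.29 in cerebellar NeuN-, 5.35 and 4.68 in prefrontal NeuN+, and 9.36 and 9.39 in prefrontal NeuN-, with log2 changes of 1.18 in cerebellum and -0.58 in prefrontal cortex and an interaction of 1.76 (adjusted p = 3.6e-05). Pomp, the core maturation factor, named here after its values were seen, changed by -0.59 in prefrontal cortex and 0.59 in cerebellum. Usp14, the deubiquitinase of the base, was not called between the gates and was 3.27-fold lower in cerebellar than in prefrontal NeuN+ nuclei.

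Among 10 ubiquitin and ubiquitin-activating genes, 1 was higher, 6 lower and 3 not called in prefrontal NeuN+, and 2 were higher, 3 lower and 5 not called in cerebellar NeuN+. The shares of all features were 35.0% higher and 37.6% lower in prefrontal NeuN+, and 32.4% and 39.2% in cerebellar NeuN+. Ubb, a polyubiquitin gene, was at 1496 and 1504 FPKM in cerebellar NeuN+, 1432 and 1432 in cerebellar NeuN-, 2518 and 2555 in prefrontal NeuN+, and 5605 and 5718 in prefrontal NeuN-. It was lower in prefrontal NeuN+, with a log2 change of -0.92, and the cerebellar gates were not called apart.

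Of 11 tested genes of class I antigen presentation and interferon response, 1 was higher, 8 lower and 2 not called in prefrontal NeuN+, and 2 were higher, 8 lower and 1 not called in cerebellar NeuN+. All features came to 35.0% higher and 37.6% lower in prefrontal NeuN+, and to 32.4% and 39.2% in cerebellar NeuN+. H2-K1, a class I heavy chain, was at 2.38 and 4.18 FPKM in cerebellar NeuN+, 14.9 and 13.1 in cerebellar NeuN-, 2.56 and 3.11 in prefrontal NeuN+, and 29.7 and 30.4 in prefrontal NeuN-. Tap2, a peptide transporter gene, was listed at 0.193 and 0 FPKM in prefrontal NeuN+ against 3.40 and 3.196 in prefrontal NeuN-. Of the 4 regulators of proteasome genes that were tested, 1 was higher and 3 lower in prefrontal NeuN+, and 2 were lower in cerebellar NeuN+ with 2 not called, beside the same shares of all features. Nfe2l2, the stress-activated relative of Nfe2l1, was at 1.15 and 0.909 FPKM in cerebellar NeuN+, 20.3 and 19.5 in cerebellar NeuN-, 0.0325 and 0.0317 in prefrontal NeuN+, and 17.7 and 19.7 in prefrontal NeuN-. It was lower in NeuN+ in both regions, and in NeuN- it was 0.30 higher on the log2 scale in cerebellum than in prefrontal cortex (adjusted p = 0.0208). These counts are with the scaling used; without scaling and with a common sum the partner genes called lower in prefrontal NeuN+ numbered 12 and 7.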

How the data were processed

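RNA of sorted nuclei was measured in 8 libraries, 2 in each of 4 groups. The deposited values are gene-level FPKM estimates in Cufflinks tables on mm9, per the file headers and the submitters' processing notes, which also name Trim Galore 0.3.7, Bowtie 1.1.1, TopHat2 2.1.1 and Bismark without their roles. Whether strand was used is not stated in these sources. Values implied whole fragments for 49.9% to 53.4% of low features within a tolerance of 0.05, so the read numbers could not be rebuilt and a count model was left out.

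Each library was scaled by the median of ratios over 9109 features, then limma 3.58.1 (R 4.3.3, trend on, two-sided) modelled log2(scaled FPKM + 1) for the 14376 features that reached 1 FPKM in 2 or more libraries. All 4 groups entered 1 fit with 4 residual degrees of freedom, 5 comparisons were made, and p-values were adjusted by Benjamini-Hochberg over all features. The fit was also run on simulated data. Replicates of a group correlated at a Spearman rho of 0.972 to 0.977 over features, and libraries of different groups at 0.68 to 0.808. Among member genes at 1 FPKM or more, the median ratio between replicates was 1.05.

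All features matching the symbol rule are accounted for. Those given library by library are, per comparison and direction, the 3 called genes with the largest change, the catalytic and inducible pairs, the activators, and the highest and lowest gene of each class; from other lists, up to 3 genes by size of change. The members, gene lists and markers were chosen with earlier results of these data known. Of 20 partner genes 17 are in the tables. The closing section gives the effect of other scalings, pseudocounts, filters, a replicate block, the variance trend, fits to 2 groups and leaving out each library. Some genes of these lists are counted but not reported here by name.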

Additional observations from a re-analysis of the deposited data

Results flagged for a closer look

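The gate change (NeuN+ minus NeuN-, log2) differed between cerebellum and prefrontal cortex for the genes below by limma's interaction test, and each value below is the cerebellar change minus the prefrontal change. In the alpha ring the difference was 0.83 for Psma1, 1.097 for Psma2, 0.62 for Psma4, 0.53 for Psma5, 1.21 for Psma6 and 0.56 for Psma7, while Psma3 stood alone at -0.41. All 7 beta ring genes were positive, with 1.07 for Psmb1, 0.62 for Psmb2, 1.00 for Psmb3, 0.22 for Psmb4, 1.39 for Psmb5, 1.15 for Psmb6 and 1.28 for Psmb7. Among the ATPases the difference was 1.24 for Psmc1, 0.96 for Psmc2, 0.60 for Psmc3, 0.67 for Psmc5 and 0.46 for Psmc6, and -0.25 for Psmc4.

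For the other regulatory particle genes the difference was 0.48 for Psmd2, 0.44 for Psmd6, 0.56 for Psmd7 and 0.80 for Psmd8, against -0.25 for Psmd1, -0.42 for Psmd12 and -0.25 for Psmd14. Chaperones gave 0.66 for Psmd10, 0.83 for Psmg2, 1.37 for Psmg3 and -0.34 for Psmg1. The remaining genes were Psme2 at 0.43, Psmf1 at 0.96, Psmb11 at -0.56 and Psmc3ip at 1.501. Without scaling the negative differences of Psma3, Psmc4, Psmd1, Psmd12, Psmd14 and Psmg1 were no longer called, at -0.17, -0.015, -0.012, -0.19, -0.02 and -0.11. With a common sum those of Psmc6, Psmd10 and Psme2 were not called, and with quantiles those of Psma7, Psmb4 and Psme2. Psmb9, which passed the filter through prefrontal NeuN- alone, is left out. The call was lost when 1 library was left out for Psmb4, Psmd10, Psmd14 and Psmg1.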

How the results depend on the processing

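Scaling moved the results most. With no scaling 1 gene and not 7 had a lower gate change in cerebellum than in prefrontal cortex. Genes higher in cerebellar than in prefrontal NeuN- numbered 6 with a common sum, 5 with quantiles and 2 with the replicate block, and not 1. Without the members that overlap another feature, an alternative chosen after seeing the data, 5 genes and not 8 were lower in cerebellar NeuN+; fewer genes were counted there. Leaving out Psmb8 and Psmb9, also chosen after seeing the data, moved no count by over 1.5 times. The other counts stayed within 1.5 times under the pseudocount of 0.1, both other filters, the variance trend off and, except for the gate change, where it does not apply, the fit to 2 groups. Without each library in turn, prefrontal NeuN+ was lower for 29 to 34 genes and cerebellar NeuN+ higher for 21 to 27, with the lone library of a group assumed to vary like the other groups.

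Single log2 changes changed sign under scaling alone, and the cause was not tested beyond it. Many of the new values lay near 0 and were not called. Called with the new sign were Psmd14 and the NeuN- region change of Psma3 without scaling. The others were the NeuN- region changes of Psmc4, Psmd11 and Psme2 with a common sum or quantiles, and the difference of Psmd4 with quantiles. Of these only Psmd11 was called the other way with the scaling used. Without scaling the prefrontal gate change was -0.030 for Psma3, -0.061 for Psmd4 and -0.15 for Psmd14, and the NeuN- region change of Psma3 was -0.15. With a common sum the prefrontal change was 0.043 for Psma5, 0.037 for Psmb11 and 0.025 for Psmd9, and the gate change difference of Psmb4 was -0.00071. The NeuN- region change with a common sum was 0.057 for Psma7, 0.30 for Psmc4, 0.025 for Psmc5, 0.11 for Psmd11, 0.24 for Psme2 and 0.0017 for Psme4. With quantiles it was 0.084 for Psma7, 0.29 for Psmc4, 0.13 for Psmd11 and 0.27 for Psme2, the prefrontal change of Psma5 was 0.13, and the gate change difference of Psmd4 was -0.29.

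Scaling also ended calls with no change of direction. In prefrontal NeuN+ these were Psma1, Psmb4, Psmc5, Psmd7 and Psmf1 with a common sum and also Psmb11, Psmc3, Psmd9 and Psmd12 with quantiles, and Psmd1 without scaling. In cerebellar NeuN+ they were Psmb1 without scaling and Psmb1 and Psmc3 with quantiles. Between the NeuN+ groups they were Psma1, Psmb1 and Psmd9 with a common sum and also Psmb4 and Psmd13 with quantiles. Between the NeuN- groups they were Psmd9 and Psme1 with either, Psmd13 with a common sum, and Psmb4 and Psmc5 with quantiles.

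Leaving out 1 library ended the prefrontal call of Psma5, Psmb11, Psmd9 and Psmf1, the cerebellar gate call of Psmb1, Psmb3, Psmc3, Psmd3, Psmd7, Psmd8, Psmd10, Psmd14 and Psmg4, the NeuN+ region call of Psma1, Psmb1, Psmb6, Psmd9 and Psmg4, and the NeuN- region call of Psme1. Same-numbered libraries correlated at -0.05 to 0.03 in their deviations from the group means, so no shared deviation was seen. This cannot show whether same-numbered libraries share a sort or preparation. With the replicate block 32 genes were lower in prefrontal NeuN+ and 26 higher in cerebellar NeuN+. With 2 libraries a group and no read counts, small changes of genes at a few FPKM are limited by depth.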

Other observations

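Irf1, an interferon-induced transcription factor that drives the inducible subunits, was listed at 0 FPKM in both cerebellar NeuN+ libraries, against 8.42 and 8.80 FPKM in cerebellar NeuN-. In prefrontal cortex it was at 10.0 and 9.72 FPKM in NeuN+ and 9.77 and 11.8 in NeuN-, where the gates were not called apart.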
